A study of Medicago sativa with 12 samples.

Results

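The transporters described here are the alfalfa (Medicago sativa L.) gene models whose description names the NRT1/PTR family (NPF), a proton-dependent oligopeptide transporter or a nitrate transporter, and which were expressed in the leaf. The search on descriptions matched 395 gene models outside the nitrogen metabolism pathway, and 98 of them had a mean of at least 1 FPKM (fragments per kilobase of transcript, scaled to the library's mapped fragments) over the 12 libraries. These 98 members were chosen from their descriptions and their mean level, out of 50931 gene models that reached the same level and 164632 in all. Of the 98, 83 carried one of 17 NPF numbers, 12 were described as proton-dependent oligopeptide transporters of the major facilitator superfamily, and 3 as high-affinity nitrate transporter 3.1 (NRT3.1). The family name does not hold for the last 3, because NRT3.1 (NAR2) is a partner protein of the NRT2 nitrate transporters and not itself an NPF carrier.

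Leaf RNA of cultivar zhongmu 1# was sequenced in 4 groups of 3 biological replicates. The plants had grown for 3 weeks before treatment with salt plus melatonin (SM, 150 mM NaCl and 50 µM melatonin), salt alone (S, 150 mM NaCl), melatonin alone (M, 50 µM) or the nutrient solution that all groups received (CK). The melatonin concentration is the one the study chose from trials in soil culture, and the day on which the leaves for sequencing were taken is not given in the sources used here. Fewer cells of a type and less RNA per cell cannot be told apart in such bulk leaf samples.

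Many NPF proteins move their substrates into the cytosol together with protons. Different members carry nitrate, di- and tripeptides, or the hormones abscisic acid and gibberellin, and in Arabidopsis several of them load nitrate into the xylem or the phloem. In leaves they take part in sharing nitrate between old and young leaves and in delivering hormones to their target cells. No sequences are shown, since the deposited table holds none.

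The deposited table gave each gene model an FPKM value and an estimated count in every library. Library totals were 45862158 to 57192229 estimated counts, and the members took 0.0506 to 0.115% of them. M2 stood apart for these genes. The members summed to 661 FPKM there and to 313 to 555 FPKM in the other 11 libraries, and 23 of the 98 members had their highest value in M2 (23.5%, against 15.2% of all tested models). The summed leaf mesophyll markers (small Rubisco subunit, Rubisco activase, chlorophyll a-b binding proteins and carbonic anhydrase, 212 models) were present throughout, at 28956 to 34945 FPKM in SM, 30344 to 51695 in S, 8423 to 25241 in M and 13349 to 21427 in CK, with M2 the lowest. Of the 115 mesophyll models tested, 37 were higher and 1 was lower with salt at an adjusted p below 0.05 (3.34% and 3.06% of all tested models). Phloem markers (sieve element occlusion proteins) also differed, with sums of 21.4 to 75.9 FPKM in SM, 105 to 1713 in S, 9.51 to 27.9 in M and 14.6 to 17.2 in CK, and 7 of 13 tested models higher with salt (3.34% of all tested models). Nodule, root endodermis and guard cell markers summed to at most 2.75, 1.31 and 4.91 FPKM in any library, and senescence markers to 7.91 to 11.2 FPKM in the salt groups against 2.55 to 6.83 FPKM without salt. The part of these cell-type differences in the results on transporters was not tested.

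The member models spanned a narrow range of low to moderate levels. Their median was 3.44 FPKM, against 4.66 FPKM for all tested models, 27 of the 98 were under 2 FPKM, and the highest reached 16.8 FPKM. In each of the 4 groups, 62 members averaged at least 1 FPKM, so 36 passed the limit through some groups only, and 6 of these through the salt groups alone (MS.gene001512, MS.gene48607, MS.gene043168, MS.gene89908, MS.gene08379 and MS.gene34992) and 4 through the groups without salt alone (MS.gene049107, MS.gene015764, MS.gene76510 and MS.gene039969). A salt difference in these 10 follows in part from the limit itself. The members just inside the limit were MS.gene039969 (NPF5.1) at 1.01 FPKM and MS.gene047302 (NPF4.6) at 1.06 FPKM, and the models just outside it were MS.gene028218 (a proton-dependent oligopeptide transporter) at 0.954 FPKM and MS.gene93925 (NPF5.10) at 0.949 FPKM. The table names 4 copies of each of 8 chromosomes, 1.1 to 8.4, and places 94 members on them and 4 on contigs. Chromosome 4 held 22 members, chromosome 8 held 18 and chromosome 5 held 16. Reads of near-identical copies may have been divided among models, so sums over all models of a description were tested beside the single models. Of the 1176 values of members in libraries, 49 in 28 members were listed at 0, several of them in models that were well expressed in the other replicates of their group.

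**Figure D1:**
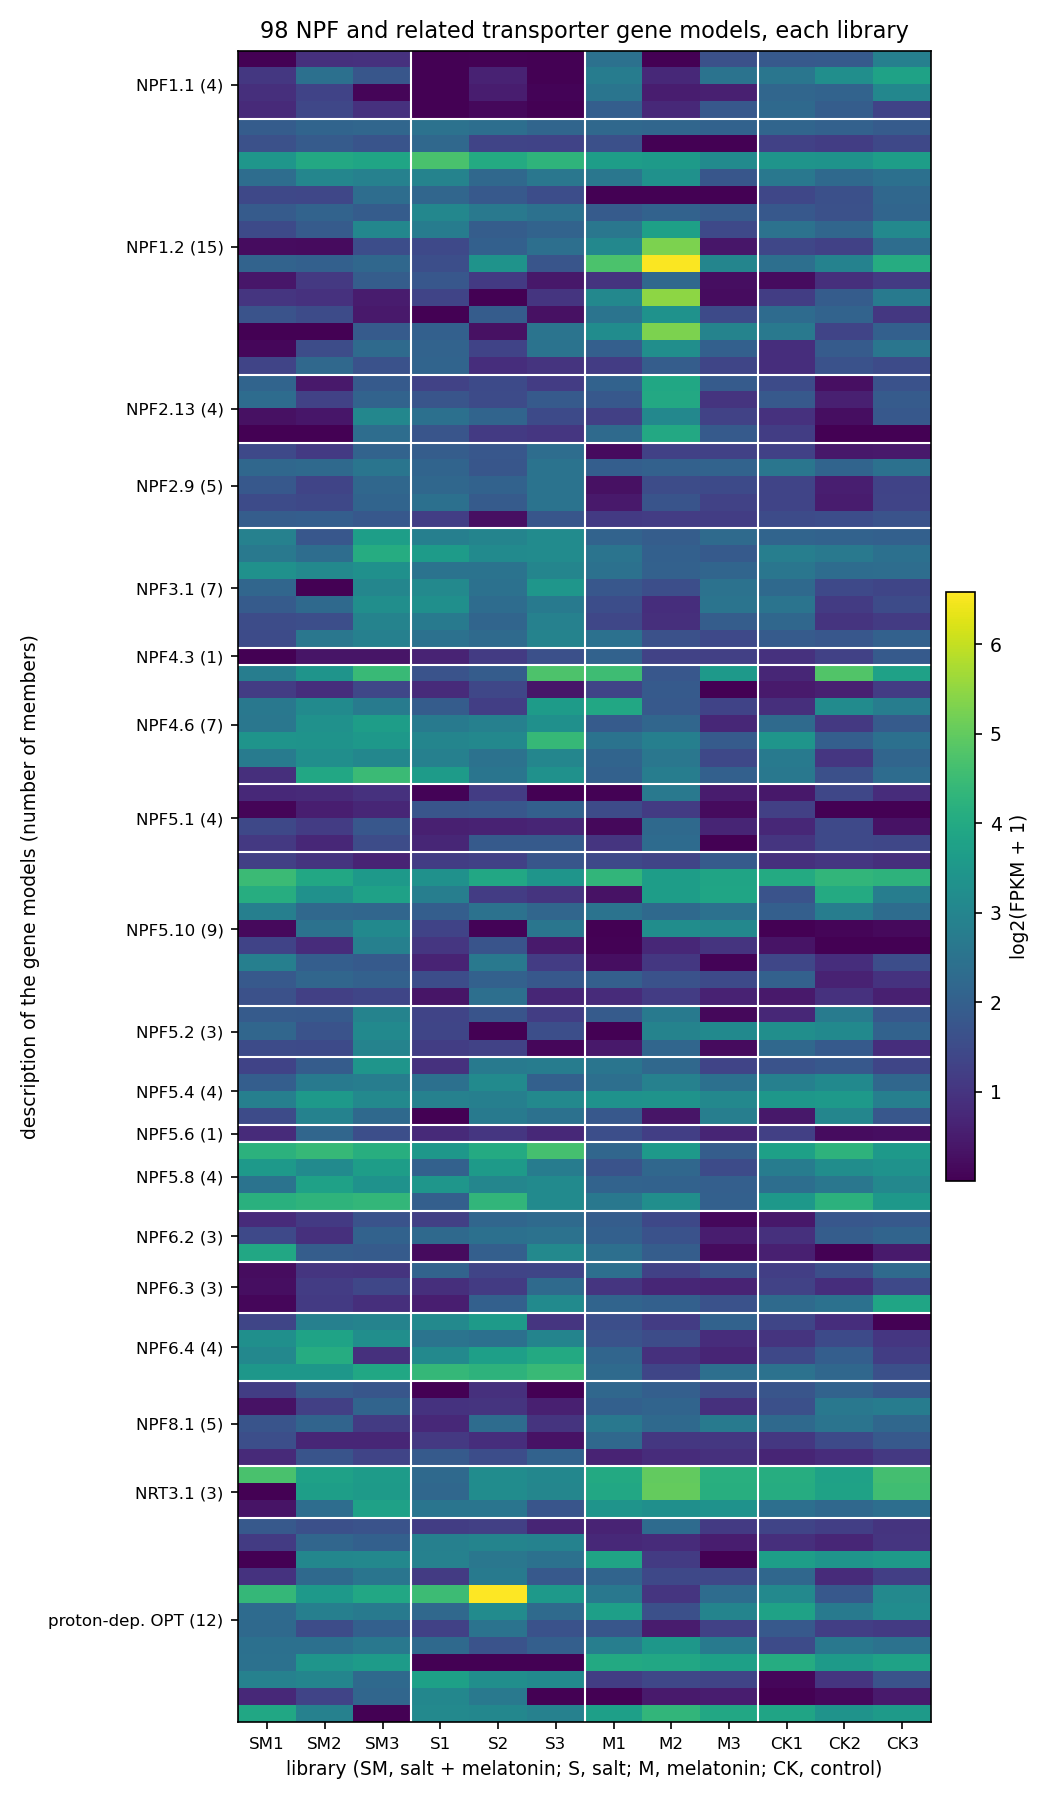
Heat map of log2(FPKM + 1) for the 98 members (rows, by description, with the number of members in brackets) in the 12 libraries (columns). The NPF1.2 and NPF2.13 rows are brightest in M2, the NPF1.1 rows are dark in the S libraries, and single dark cells are models listed at 0 in 1 library.

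Salt was compared without melatonin (S vs. CK), with melatonin (SM vs. M), and over both as the overall salt effect, the mean log2 level of S and SM minus that of M and CK. In the overall salt effect, 8 members were higher (background 3.34%, the share of all tested models) and 1 was lower (background 3.06%) with a Benjamini-Hochberg adjusted p under 0.05 in the quasi-likelihood test of edgeR. Among the 8, MS.gene08379 met the limit of 1 FPKM only through the salt groups. With thresholds of a 2-fold change and an unadjusted p below 0.05, 23 members were higher (background 7.92%) and 8 were lower (background 8.12%). In S vs. CK alone, 2 members were higher (background 0.997%) and 1 was lower (background 0.542%), and in SM vs. M 1 was higher (background 0.124%). The 3 libraries of a group did not overlap with those of the other group in 21 members that were higher (background 12.8%) and 13 that were lower (background 13.7%) in S vs. CK, and in 20 higher (background 10.8%) and 10 lower (background 11.4%) in SM vs. M. Over the members, the median log2 fold change was 0.32 for S vs. CK and 0.18 for SM vs. M, against 0.05 and 0.02 over all tested models. S vs. CK and SM vs. M share no library, and 70 of the 98 members (71.4%) had the same sign in both, against 63.8% of all tested models. The fold and unadjusted p thresholds were passed by 20 members in S vs. CK (background 14.2%) and by 20 in SM vs. M (background 11.7%), and 7 members passed them in both, each with the same sign. Of all 50931 tested models, 2574 passed them in both, and 2494 of these had the same sign, so the shared sign is not particular to the members.

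**Figure D2:**
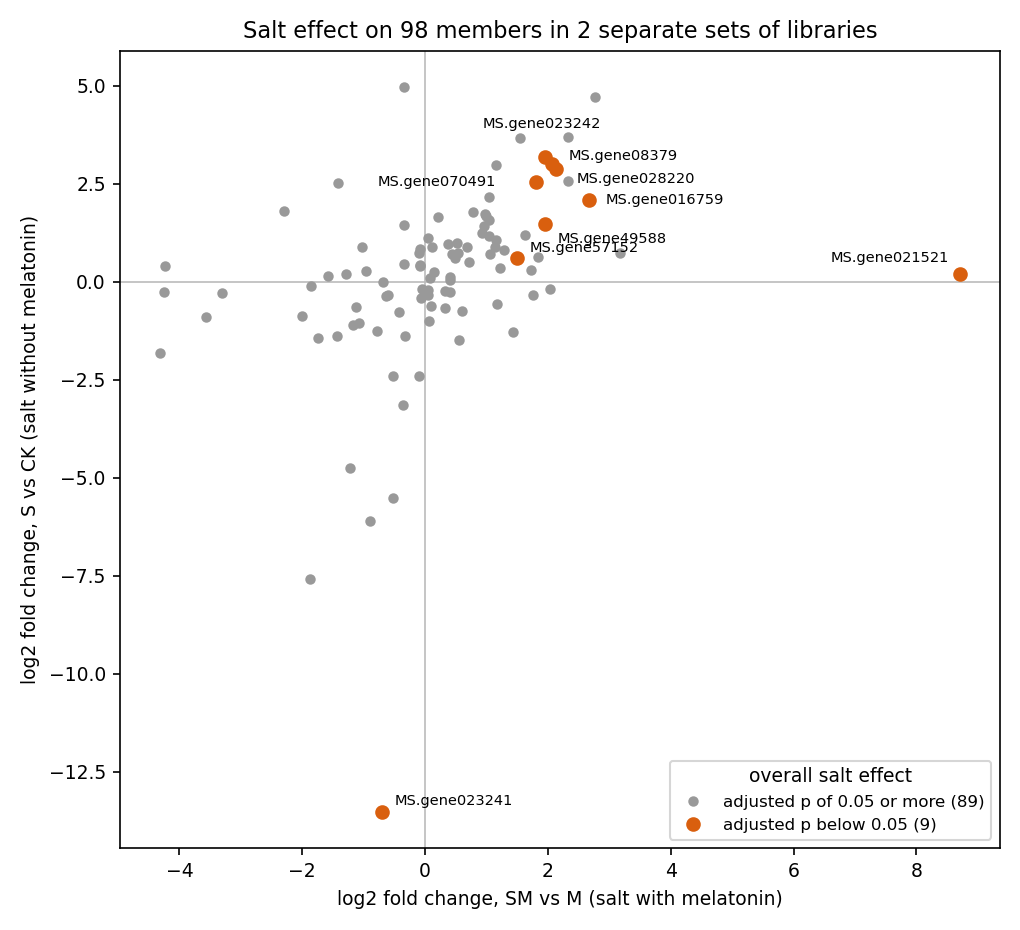
Log2 fold change of each member with salt, in melatonin-treated plants (SM vs. M, horizontal axis) and without melatonin (S vs. CK, vertical axis), orange where the overall salt effect had an adjusted p below 0.05. Of the 9 orange models, 7 lie to the upper right, while MS.gene021521 lies far right near 0 on the vertical axis and MS.gene023241 far down near 0 on the horizontal one.

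The clearest difference was in NPF6.4, which in Arabidopsis (NRT1.3) is a nitrate transporter closely related to the nitrate sensor NPF6.3. Summed over its 4 models, NPF6.4 had 27.8, 45.5 and 30.2 FPKM in SM and 39.9, 45.6 and 44.0 FPKM in S, against 11.5, 5.64 and 8.90 FPKM in M and 8.95, 9.15 and 4.37 FPKM in CK. Every salt library was above every library without salt. NPF6.4 gave a log2 fold change of 2.5 ± 0.37 (SE) in S vs. CK (adjusted p = 0.0025), 1.91 ± 0.37 in SM vs. M (adjusted p = 0.0145) and 2.21 ± 0.26 overall (adjusted p = 0.000323, edgeR's quasi-likelihood test). SM vs. S differed by -0.42 ± 0.35 and the interaction of salt and melatonin was -0.59 ± 0.50, neither past the threshold (adjusted p = 0.784 and 0.803). The call in SM vs. M was lost without SM2 (adjusted p = 0.0524), and the others held in each fit that left out 1 library.

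Each copy of chromosome 5 carried 1 NPF6.4 model, and all 4 models had a positive log2 fold change in S vs. CK and SM vs. M. MS.gene070491 (chromosome 5.4, 67883239 to 67886417, plus strand) had 10.1, 10.2 and 14.1 FPKM in SM and 20.1, 18.1 and 21.2 FPKM in S, against 3.84, 1.62 and 4.32 FPKM in M and 4.64, 3.59 and 2.03 FPKM in CK. Its groups with and without salt did not overlap, and its S libraries were all above its SM libraries. The log2 fold change of MS.gene070491 was 2.18 ± 0.33 in the overall salt effect (adjusted p = 0.00593) and 2.55 ± 0.47 in S vs. CK (adjusted p = 0.0324). MS.gene016759 (chromosome 5.2, 73071879 to 73075057, plus strand) had 8.64, 13.1 and 8.51 FPKM in SM and 4.78, 4.39 and 6.79 FPKM in S, against 2.24, 1.88 and 0.773 FPKM in M and 0.998, 1.78 and 1.05 FPKM in CK. Here the SM libraries lay above the S libraries, the reverse of the order in MS.gene070491. MS.gene016759 gave 2.38 ± 0.33 in the overall salt effect (adjusted p = 0.00452) and 2.96 ± 0.48 in SM vs. CK (adjusted p = 0.0427).

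The other pair of NPF6.4 models was more scattered. MS.gene37910 (chromosome 5.3) had 7.45, 15.8 and 0.881 FPKM in SM and 7.52, 12.2 and 14.97 FPKM in S, against 3.44, 0.885 and 0.616 FPKM in M and 1.71, 2.95 and 1.29 FPKM in CK. MS.gene81602 (chromosome 5.1) had 1.602, 6.29 and 6.68 FPKM in SM and 7.54, 11.0 and 1.02 FPKM in S, against 1.97, 1.26 and 3.20 FPKM in M and 1.61, 0.832 and 0 FPKM in CK. SM3 of the first model, and SM1 and S3 of the second, fell among the libraries without salt, and neither model passed the threshold (overall log2 fold change 2.45 ± 0.67, adjusted p = 0.0593, and 2.07 ± 1.01, adjusted p = 0.272). The overall calls of MS.gene070491 and MS.gene016759 held without each of the 12 libraries. The call of MS.gene070491 in S vs. CK held only without M2, M3, SM1 or SM3 (adjusted p of 0.0247 to 0.111 over the 12 fits), and that of MS.gene016759 in SM vs. CK only without M3 or S3 (0.0399 to 0.145).

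The relatives of NPF6.4 did not pass the threshold. NPF6.3, known in Arabidopsis as the dual-affinity nitrate transporter and sensor CHL1, summed to 0.719, 5.69 and 7.10 FPKM in SM and 6.18, 7.34 and 16.0 FPKM in S, against 11.2, 8.28 and 6.67 FPKM in M and 10.5, 12.7 and 20.8 FPKM in CK. Each SM library was below each CK library, while S overlapped CK. The overall log2 fold change of NPF6.3 was -0.81 ± 0.45 (adjusted p = 0.225). NPF6.2, which in Arabidopsis (NRT1.4) stores nitrate in the petiole, averaged 12.4 ± 5.66 FPKM in SM and 13.5 ± 7.08 FPKM in S, against 7.305 ± 6.35 FPKM in M and 5.77 ± 3.56 FPKM in CK (SD, n = 3 each), with an overall log2 fold change of 1.04 ± 0.55 (adjusted p = 0.198).

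NPF1.1 and NPF1.2 act in Arabidopsis (NRT1.12 and NRT1.11) in moving nitrate from the xylem to the phloem on its way to young leaves. NPF1.1 was lower with salt. Its 4 models summed to 2.66, 8.44 and 4.31 FPKM in SM and 0.0144, 1.14 and 0.0473 FPKM in S, against 18.1, 1.82 and 9.84 FPKM in M and 14.8, 17.3 and 27.9 FPKM in CK. Each S library was below each CK library, and M2 was below every SM library. In log2 fold change this was -5.62 ± 1.37 in S vs. CK (adjusted p = 0.0234), -1.0 ± 1.12 in SM vs. M (adjusted p = 0.652) and -3.31 ± 0.87 overall (adjusted p = 0.0191). The salt effects with and without melatonin differed by 4.61 ± 1.66, which did not pass the threshold (interaction, adjusted p = 0.522), nor did SM vs. S (3.6 ± 1.25, adjusted p = 0.458), although each SM library was above each S library. All 4 models, 1 on each copy of chromosome 4, had a negative salt effect in both comparisons, and no single one was called. MS.gene049107 and MS.gene015764 among them met the limit of 1 FPKM only through the groups without salt, so their sign follows in part from the limit. The most abundant, MS.gene04745 (chromosome 4.2), averaged 2.63 ± 1.67 FPKM in SM and 0.184 ± 0.318 FPKM in S, against 3.74 ± 2.703 FPKM in M and 8.76 ± 3.91 FPKM in CK (SD, n = 3 each). The sum's call in S vs. CK was lost without CK3 or S3 (adjusted p of 0.00293 to 0.0679 over the 12 fits) and with the 2 groups alone (0.0588), and without S2 the log2 fold change was -9.13 in S vs. CK and -5.07 for the overall effect.

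NPF1.2 was the most abundant description, with 43 models of which 15 were members, and its models fell into parts that behaved differently. Its sum was 37.5, 52.4 and 62.1 FPKM in SM and 81.0, 59.4 and 63.0 FPKM in S, against 89.8, 279.6 and 39.7 FPKM in M and 51.0, 50.04 and 77.2 FPKM in CK. The M2 value stood far above the rest and the groups overlapped. The overall log2 fold change was -0.85 ± 0.39 (adjusted p = 0.135), with -0.29 (adjusted p = 0.419) without M2 and -1.06 (adjusted p = 0.0280) without M3. On chromosome 2, MS.gene36328 (chromosome 2.2, 2022311 to 2025691) had 3.27, 3.04 and 3.59 FPKM in SM and 1.99, 9.51 and 2.36 FPKM in S, against 25.3, 93.0 and 6.99 FPKM in M and 4.34, 6.55 and 15.9 FPKM in CK. The models at the like place on the other copies, MS.gene47801, MS.gene76510 and MS.gene85126, also peaked in M2, at 38.0, 42.9 and 38.3 FPKM, and reached at most 8.25 FPKM in any other library. For MS.gene36328 the overall log2 fold change was -2.23 ± 0.63 (adjusted p = 0.0657), and -1.62 without M2. It passed the threshold only without M3 or S2 (adjusted p of 0.0383 to 0.145 over the 12 fits).

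The 4 members on chromosome 1 and the 2 on contigs had positive overall values. MS.gene54006 (chromosome 1.4, 10650490 to 10651296), the most abundant of them, had 10.02, 14.8 and 13.7 FPKM in SM and 24.8, 15.2 and 18.7 FPKM in S, against 11.7, 10.9 and 7.81 FPKM in M and 9.71, 9.41 and 11.8 FPKM in CK, with an overall log2 fold change of 0.67 ± 0.21 (adjusted p = 0.0925). All 3 S libraries were above all 3 CK libraries, and SM1 fell below M1 and M2. MS.gene021521 (contig 11172, 39401 to 39860) had 1.69, 1.63 and 4.15 FPKM in SM and 3.53, 2.58 and 1.92 FPKM in S, was listed at 0 in all 3 M libraries, and had 1.62, 2.03 and 3.59 FPKM in CK. Set against a floor of 3 counts per library, it was at least 17.5-fold higher in SM than in M (edgeR's quasi-likelihood test, adjusted p = 0.0317), whereas S and CK overlapped (log2 fold change 0.20 ± 0.70). Its overall salt call (adjusted p = 0.00763) therefore rests on the M libraries. The call in SM vs. M held only without S2 or S3 (0.0436 to 0.0803). In M vs. CK, MS.gene021521 was at least 16.8-fold lower in M and had the lowest p of the members, but an adjusted p of 0.163.

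NPF2.13 (NRT1.7) loads nitrate into the phloem of old Arabidopsis leaves and NPF2.9 (NRT1.9) works in root phloem. NPF2.13 averaged 9.56 ± 8.55 FPKM in SM and 8.73 ± 1.89 FPKM in S, against 24.6 ± 25.4 FPKM in M and 5.43 ± 3.81 FPKM in CK (SD, n = 3 each). The high M mean came largely from M2 (53.9 FPKM), as the other M libraries had 11.2 and 8.61 FPKM. Each M library was still above each CK library, the highest of which had 8.51 FPKM. M vs. CK did not pass the threshold (2.05 ± 0.95, edgeR's quasi-likelihood test, adjusted p = 0.701). NPF2.9 averaged 16.4 ± 3.86 FPKM in SM and 20.2 ± 5.87 FPKM in S, against 9.68 ± 3.42 FPKM in M and 11.6 ± 4.34 FPKM in CK, with an overall log2 fold change of 0.74 ± 0.25 that just missed the threshold (adjusted p = 0.0525). Its 5 members all had a positive overall salt effect, but MS.gene001512 met the limit of 1 FPKM only through the salt groups.

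Among the NPF members that carry hormones, NPF3.1, a gibberellin transporter in Arabidopsis, was higher with salt. Its sum over 13 models was 31.2, 25.5 and 68.3 FPKM in SM and 49.3, 37.0 and 52.0 FPKM in S, against 23.2, 14.9 and 23.9 FPKM in M and 29.7, 20.1 and 19.5 FPKM in CK. Salt and non-salt libraries did not overlap within either comparison, although SM2 was below CK1. Its overall log2 fold change was 0.95 ± 0.26 (adjusted p = 0.0222), with 0.97 ± 0.36 for S vs. CK and 0.93 ± 0.36 for SM vs. M (adjusted p = 0.107 and 0.147). The 7 members, 4 on chromosome 5 and 3 on chromosome 7.2, had overall log2 fold changes of 0.79 to 1.19, and none was called alone. The call of the sum was lost without CK2 or CK3 (adjusted p of up to 0.0554).

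NPF4.6 (AIT1 or NRT1.2 in Arabidopsis, an importer of abscisic acid that also takes up nitrate) was split by position. MS.gene49588 (chromosome 5.1, 28997576 to 29004446) had 5.162, 9.10 and 11.7 FPKM in SM and 5.62, 6.25 and 8.85 FPKM in S, against 2.74, 3.54 and 0.662 FPKM in M and 3.83, 1.14 and 2.72 FPKM in CK. Every salt library of MS.gene49588 was above every library without salt, and the overall log2 fold change was 1.71 ± 0.44 (adjusted p = 0.0470). This call was lost in each of the 12 fits that left out 1 library (0.0540 to 0.103). The models on the 4 copies of chromosome 5 all leaned the same way, with overall log2 fold changes of 1.01 to 1.71. In contrast, MS.gene037904 (chromosome 1.1, 31384019 to 31387107), the most abundant NPF4.6 model, had 5.87, 9.69 and 21.1 FPKM in SM, 2.21, 2.80 and 25.8 FPKM in S, 22.2, 2.45 and 10.9 FPKM in M and 0.647, 26.7 and 12.6 FPKM in CK. Its replicates differed more than its groups (overall -0.14 ± 0.90, adjusted p = 0.965). NPF4.6 was also summed by chromosome, after the data were seen. The chromosome 5 models gave 1.25 ± 0.34 for salt (edgeR's quasi-likelihood test, adjusted p = 0.0256). The 5 models of chromosome 8, none of them a member, gave -2.74 ± 0.50 (adjusted p = 0.00395). Their sum averaged 0.458 FPKM in SM and 0.531 FPKM in S, against 4.59 FPKM in M and 2.37 FPKM in CK. Sums, too, were tested only from a mean of 1 FPKM, and this one met that limit only through the groups without salt. A lower level with salt was therefore built in part into its choice, and its test is given as a description. The sums on chromosomes 1, 2, 3 and 7 were not called. The sum over all 18 NPF4.6 models averaged 59.9 ± 23.1 FPKM in SM and 50.4 ± 29.4 FPKM in S, against 39.9 ± 16.3 FPKM in M and 37.2 ± 7.53 FPKM in CK (overall 0.68 ± 0.26, adjusted p = 0.0821).

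NPF4.3, with 6 models of which only MS.gene047248 was a member, was lower with salt. The sum was 0.226, 0.305 and 0.637 FPKM in SM and 1.02, 1.43 and 6.08 FPKM in S, against 9.49, 2.23 and 2.08 FPKM in M and 3.04, 1.68 and 8.31 FPKM in CK. All SM libraries were below all M libraries, while S overlapped CK. SM vs. M gave a log2 fold change of -3.43 ± 0.92 (adjusted p = 0.0498), S vs. CK -0.62 ± 0.84 and the overall effect -2.02 ± 0.61 (adjusted p = 0.0362), and the interaction did not pass the threshold (-2.81 ± 1.21, adjusted p = 0.582). The overall call held only without CK2, M2, M3, S3 or SM3 (0.0155 to 0.0935), and the call in SM vs. M only without S1 or S3 (0.0336 to 0.154). With limma both calls were lost (adjusted p = 0.0824 and 0.107), and that in SM vs. M was also lost with no filter on low values, with filterByExpr and with the 2 groups alone (0.0564 to 0.0663).

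NPF5.8 was higher with salt in the presence of melatonin, and had the lowest p of the 21 sums in M vs. CK. Its sum over 4 models, all members and all on chromosome 6, was 50.5, 59.2 and 56.99 FPKM in SM and 26.3, 52.5 and 45.4 FPKM in S, against 14.3, 26.1 and 10.7 FPKM in M and 32.8, 49.3 and 37.8 FPKM in CK. The M libraries were below all CK and SM libraries, whereas S overlapped CK. NPF5.8 gave a log2 fold change of 1.66 ± 0.31 in SM vs. M (adjusted p = 0.0129), 0.01 ± 0.30 in S vs. CK and 0.83 ± 0.21 overall (adjusted p = 0.0170). M vs. CK gave -1.21 ± 0.30 (adjusted p = 0.400) and the interaction 1.65 ± 0.42 (adjusted p = 0.485), so a difference between the 2 salt effects was not established at the threshold. Among the single models, MS.gene57152 (chromosome 6.2, 4319928 to 4324649) had 4.68, 12.5 and 9.30 FPKM in SM and 9.93, 7.07 and 7.87 FPKM in S, against 3.27, 3.23 and 2.99 FPKM in M and 4.17, 5.14 and 7.44 FPKM in CK. Both salt groups overlapped CK and lay above M, with an overall log2 fold change of 1.05 ± 0.27 (adjusted p = 0.0472), and the call held only without SM1 (0.0259 to 0.110). The neighbours MS.gene54728 and MS.gene54729 on chromosome 6.1 had, after MS.gene021521, the lowest p of the members in M vs. CK, at -1.33 ± 0.52 (adjusted p = 0.855) and -1.64 ± 0.52 (adjusted p = 0.786) on the log2 scale, and MS.gene54728 gave -2.10 without M2. MS.gene20583 (chromosome 6.3) averaged 18.3 ± 1.12 FPKM in SM, 9.95 ± 8.25 FPKM in S, 5.59 ± 2.72 FPKM in M and 12.8 ± 4.27 FPKM in CK (SD, n = 3 each).

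**Figure D3:**
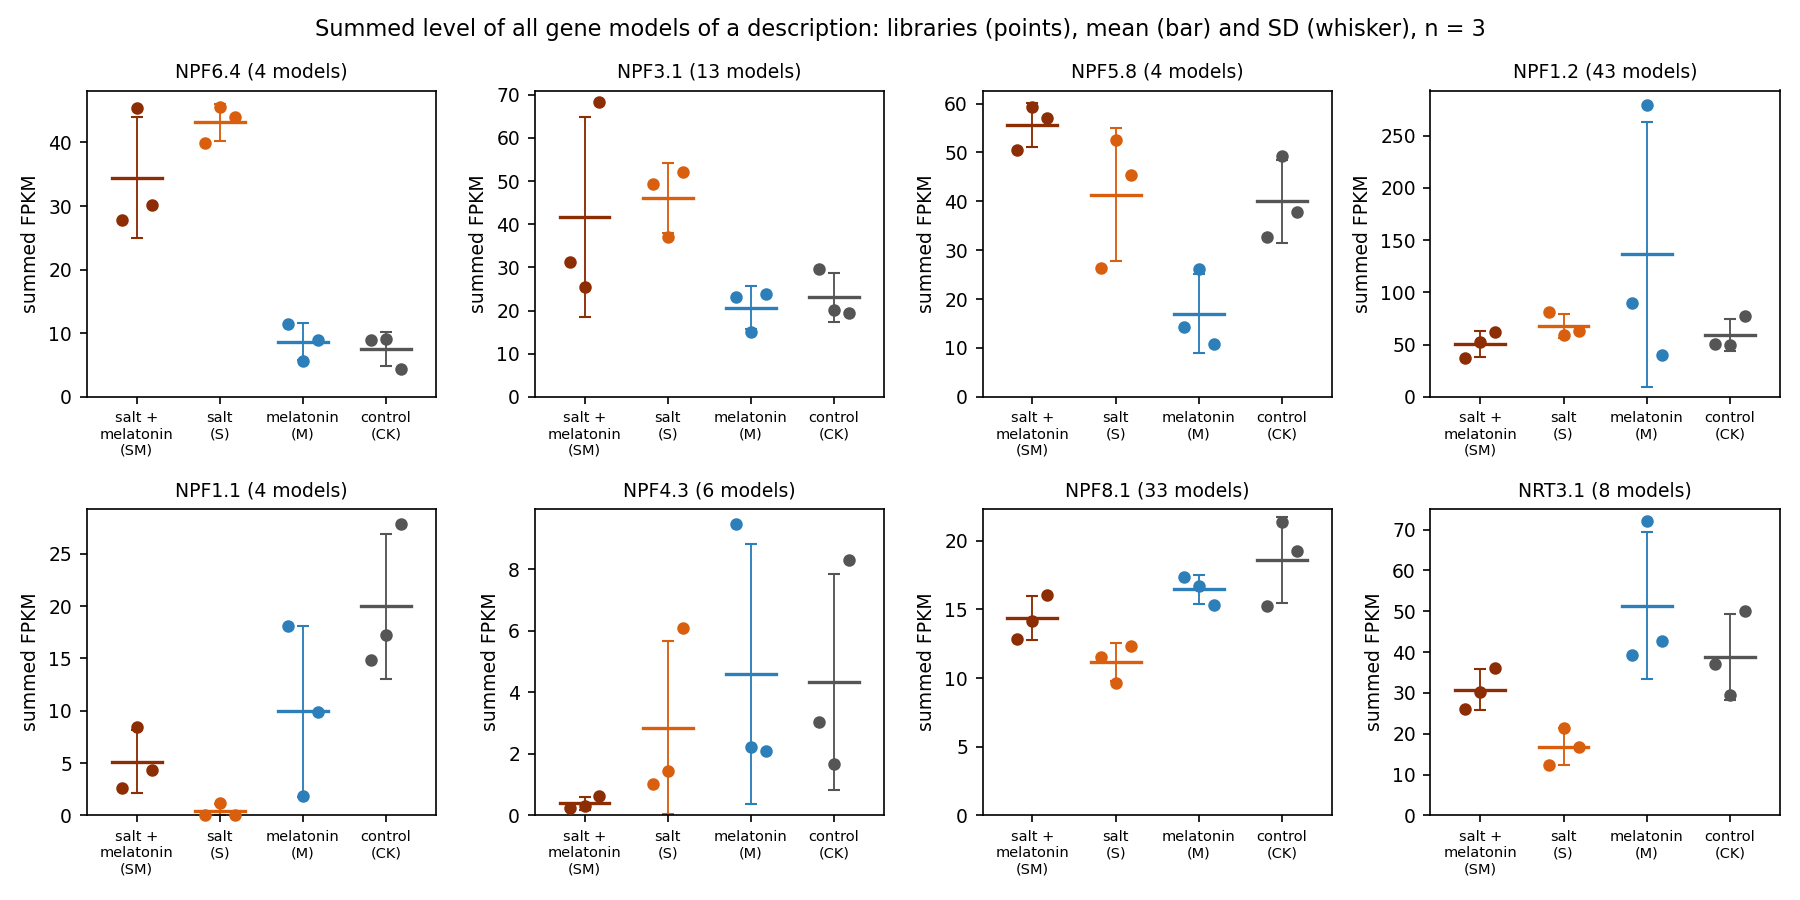
Summed FPKM of all gene models of 8 descriptions by group (SM, S, M, CK, from left to right). Points are libraries, bars are means and whiskers are the SD (n = 3, cut off at 0). The overall salt effect passed the threshold upward for NPF6.4, NPF3.1 and NPF5.8 and downward for NPF1.1, NPF4.3, NPF8.1 and NRT3.1, while NPF1.2 carries the high M2 library.

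The peptide carriers held both directions. NPF8.1 (PTR1 in Arabidopsis, a carrier of di- and tripeptides) was lower with salt. Its sum over 33 models was 12.9, 14.2 and 16.1 FPKM in SM and 11.5, 9.65 and 12.3 FPKM in S, against 17.4, 16.7 and 15.3 FPKM in M and 15.2, 21.4 and 19.2 FPKM in CK. The S libraries were all below the CK libraries, and SM3 lay among the M libraries. Its log2 fold change was -0.85 ± 0.20 in S vs. CK (adjusted p = 0.0214), -0.23 ± 0.20 in SM vs. M and -0.54 ± 0.14 overall (adjusted p = 0.0201). The call in S vs. CK was lost without CK2, CK3 or S2 (0.0242 to 0.0759) and with the 2 groups alone (0.0810). The 4 members on chromosome 3, 1 on each copy, all leaned downward (-1.75 to -1.01 overall), while MS.gene89908 on chromosome 4.2 had 0.709, 2.28 and 1.55 FPKM in SM and 2.63, 1.94 and 3.17 FPKM in S, against 0.580, 0.775 and 0.8997 FPKM in M and 0.590, 0.801 and 1.12 FPKM in CK (1.33 ± 0.38, adjusted p = 0.0697). MS.gene89908 met the limit of 1 FPKM only through the salt groups, so a salt difference was built into its choice and its test is given as a description. When the counts were summed by description and chromosome, a sum chosen after the data were seen, the NPF8.1 models of chromosome 3 gave an overall log2 fold change of -1.52 ± 0.27 (adjusted p = 0.0035, over 19127 such sums). The NPF8.1 models of chromosome 4 went the other way in the same fit (1.57 ± 0.39, adjusted p = 0.0183), with sums of 5.89, 5.24 and 7.86 FPKM in SM and 8.04, 2.67 and 10.06 FPKM in S, against 1.01, 2.41 and 3.03 FPKM in M and 1.39, 2.07 and 3.49 FPKM in CK, where S2 was below M3 and CK3. Of 36 such sums of these transporters, 9 were higher (background 9.93%) and 5 were lower (background 10.3%). The 5 include NPF4.6 on chromosome 8, which met the limit of 1 FPKM only through the groups without salt.

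The 12 proton-dependent oligopeptide transporter members all lay on the 4 copies of chromosome 4, near one another on each copy. On each copy a model of 3344 to 3366 bases was followed, 6376 to 16974 bases further on, by a longer model of 4707 to 5652 bases on the same strand. Of the 4 shorter models, 3 were higher in the overall salt effect. MS.gene08379 (chromosome 4.1, 17366157 to 17369507) had 1.21, 3.50 and 3.09 FPKM in SM and 6.29, 6.88 and 6.53 FPKM in S, against 0.706, 0.744 and 0.435 FPKM in M and 0.861, 0.633 and 1.03 FPKM in CK. Its salt libraries were all above the others, and its S libraries above its SM libraries. Since MS.gene08379 met the limit of 1 FPKM only through the salt groups, a salt difference was built into its choice, and its tests are given as a description. It gave 3.0 ± 0.47 on the log2 scale in S vs. CK (adjusted p = 0.0204) and 2.54 ± 0.33 for the overall effect (adjusted p = 0.00337), where the call held without each library. The call in S vs. CK was lost without CK1, CK2, CK3 or S3 (0.0169 to 0.0832).

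The copies on chromosomes 4.2 and 4.3 were also higher with salt. MS.gene028220 (chromosome 4.2, 16496603 to 16499968), the most abundant member, had 19.9, 10.9 and 14.4 FPKM in SM and 21.9, 95.2 and 10.9 FPKM in S, against 5.18, 1.03 and 4.07 FPKM in M and 7.61, 2.54 and 7.55 FPKM in CK. S2 stood far above the other libraries, S3 was the lowest of the 6 salt libraries, and the overall log2 fold change was 2.51 ± 0.61 (adjusted p = 0.0394), and 1.82 without S2. MS.gene023242 (chromosome 4.3, 17853319 to 17856662) had 6.49, 6.996 and 3.74 FPKM in SM and 12.5, 8.51 and 7.92 FPKM in S, against 1.31, 1.65 and 1.54 FPKM in M and 0.0770, 1.02 and 2.21 FPKM in CK (overall effect 2.57 ± 0.59, adjusted p = 0.0330). In both models every salt library was above every library without salt. Their calls held only without S1 or S3 for MS.gene028220 (0.0336 to 0.0897) and only without CK1, CK3 or SM3 for MS.gene023242 (0.00877 to 0.0797). On chromosome 4.4, MS.gene34992 had 0.700, 1.56 and 3.51 FPKM in SM and 7.34, 5.35 and 0 FPKM in S, against 0, 0.390 and 0.433 FPKM in M and 0, 0.107 and 0.385 FPKM in CK (3.74 ± 1.58, adjusted p = 0.202). MS.gene34992 also met the limit on the mean level only through the salt groups, so its test is given as a description.

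Of the 4 longer neighbours, only MS.gene023241 was called, and their values broke off at 0 in places. MS.gene023241 (chromosome 4.3, 17863055 to 17868706) had 4.48, 9.76 and 11.3 FPKM in SM and was listed at 0 in all 3 S libraries, against 15.04, 14.4 and 12.4 FPKM in M and 15.999, 11.1 and 12.8 FPKM in CK. Against the floor of 3 counts per library it was at least 490.4-fold lower in S than in CK (adjusted p = 0.00188) and at least 311-fold higher in SM than in S (adjusted p = 0.00297). These fits, the overall salt effect, the overall melatonin effect and the interaction all passed the threshold for this model and held without each library. Both 2-group calls were lost when fitted on those groups alone (adjusted p = 0.0727 for S vs. CK), and those for melatonin and the interaction with limma (0.0771 and 0.0839). It was the member called in SM vs. S (background 0.0177%), in the overall melatonin effect (background 0.0216%) and in the interaction (background 0.0275%). Its counterparts in S were not at 0. MS.gene08380 (chromosome 4.1) had 0, 7.24 and 7.43 FPKM in SM and 6.38, 5.155 and 4.49 FPKM in S, against 13.3, 1.22 and 0 FPKM in M and 11.9, 9.76 and 11.0 FPKM in CK. MS.gene028221 (chromosome 4.2) had 3.899, 6.14 and 5.56 FPKM in SM and 3.66, 7.97 and 3.83 FPKM in S, against 12.1, 2.06 and 6.82 FPKM in M and 13.0, 5.51 and 8.26 FPKM in CK. MS.gene34993 (chromosome 4.4) had 14.1, 6.39 and 0 FPKM in SM and 7.57, 7.35 and 6.43 FPKM in S, against 12.3, 19.3 and 14.4 FPKM in M and 13.5, 9.37 and 11.1 FPKM in CK. S lay below CK without overlap in MS.gene08380 and MS.gene34993 but not in MS.gene028221, SM overlapped M in all 3, and none of the 3 was called.

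Summed over the 4 copies, the longer models had 22.5, 29.5 and 24.3 FPKM in SM and 17.6, 20.5 and 14.7 FPKM in S, against 52.8, 36.9 and 33.6 FPKM in M and 54.4, 35.8 and 43.1 FPKM in CK. The shorter models had 28.3, 23.0 and 24.7 FPKM in SM and 47.9, 115.9 and 25.3 FPKM in S, against 7.198, 3.81 and 6.47 FPKM in M and 8.54, 4.301 and 11.2 FPKM in CK. In both sums the salt libraries lay on one side of all libraries without salt, in opposite directions, and the SM libraries lay above the S libraries in the longer models. These sums were formed after the values of the models had been seen, so they were not tested. The shorter sum also holds MS.gene08379 and MS.gene34992, which met the limit of 1 FPKM only through the salt groups. Its higher level with salt therefore follows in part from the limit. Over all 71 models of the description the sum averaged 71.3 ± 2.0996 FPKM in SM and 103 ± 50.2 FPKM in S, against 63.7 ± 10.6 FPKM in M and 65.5 ± 12.8 FPKM in CK (SD, n = 3 each), with an overall log2 fold change of 0.38 ± 0.21 (adjusted p = 0.229), and 0.14 without S2. The part of read assignment between copies and neighbours in the zeros was not tested.

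**Figure D4:**
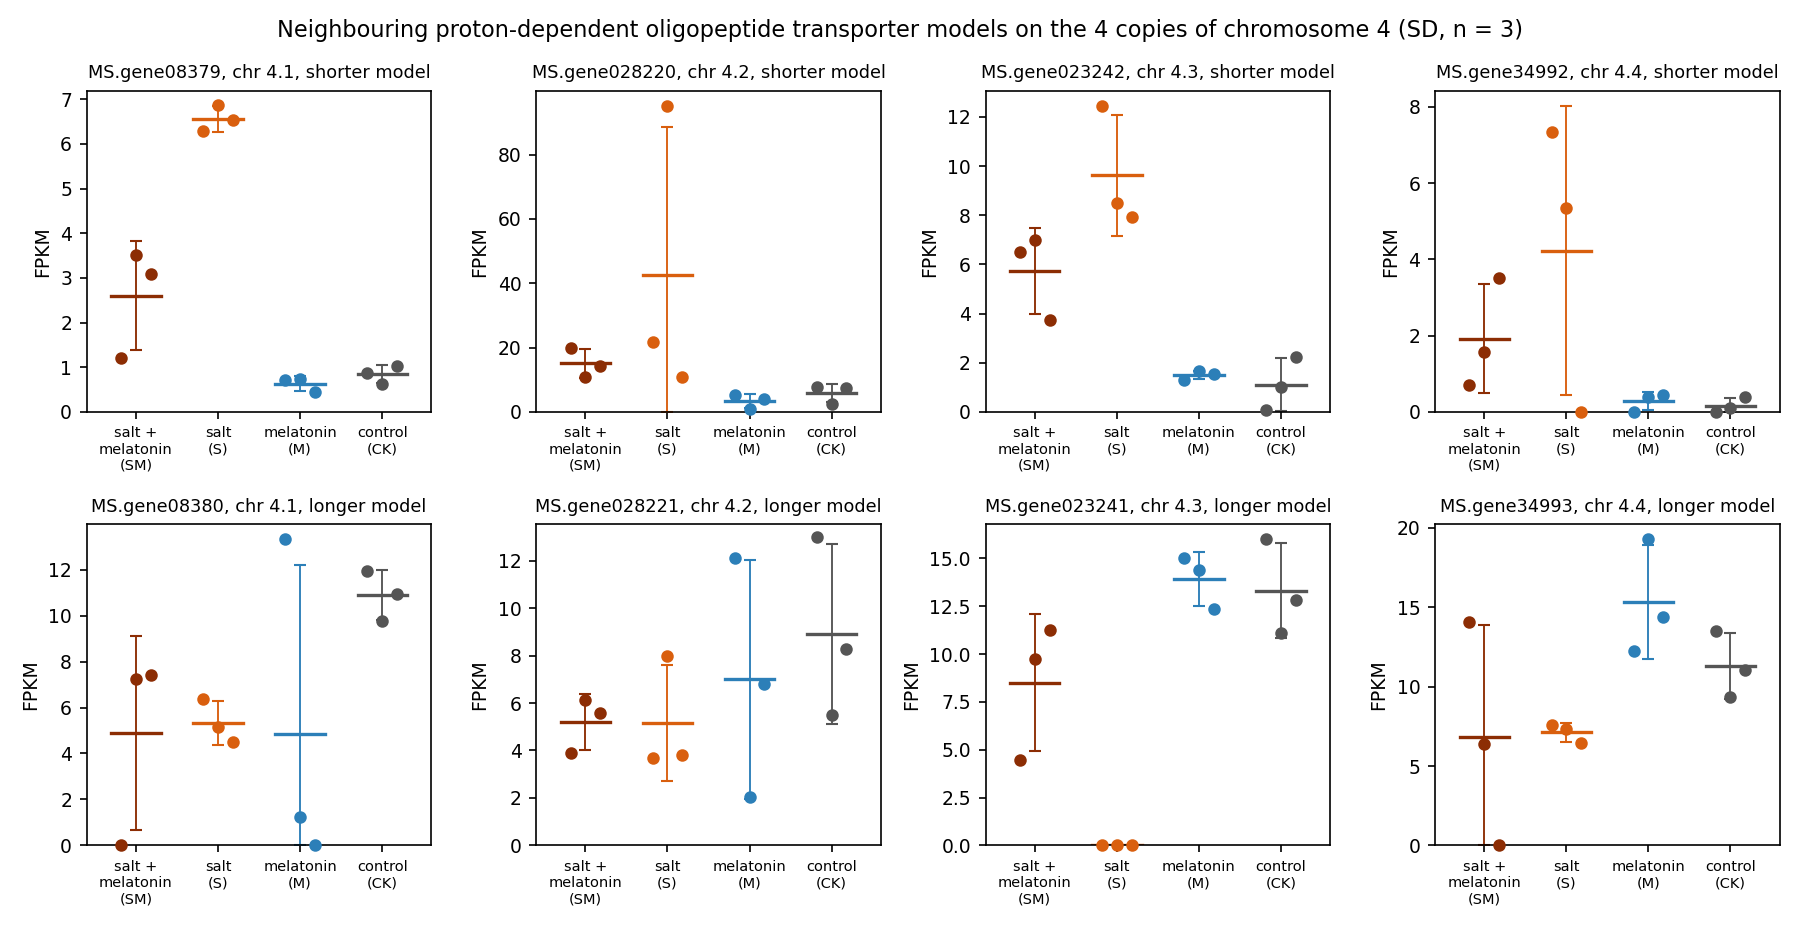
FPKM of the shorter (top) and longer (bottom) neighbouring oligopeptide transporter models on the 4 copies of chromosome 4, by group (SM, S, M, CK, from left to right). Points are libraries, bars are means and whiskers are the SD (n = 3, cut off at 0). The salt groups are higher in the top row, and MS.gene023241 is at 0 in the 3 S libraries in the bottom row. MS.gene08379 and MS.gene34992 in the top row met the limit of 1 FPKM only through the salt groups.

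NRT3.1 (NAR2), the partner that NRT2 carriers need for high-affinity nitrate uptake, was lower with salt. Its sum over 8 models was 26.1, 30.3 and 36.1 FPKM in SM and 12.3, 21.4 and 16.7 FPKM in S, against 39.4, 72.0 and 42.6 FPKM in M and 37.0, 29.4 and 50.1 FPKM in CK. S lay below CK and SM below M without overlap. NRT3.1 gave a log2 fold change of -1.22 ± 0.29 in S vs. CK (adjusted p = 0.0195), -0.75 ± 0.28 in SM vs. M (adjusted p = 0.137) and -0.99 ± 0.20 overall (adjusted p = 0.00567). The call in S vs. CK was lost without CK3, S1 or S3 (0.0167 to 0.0729) and with the 2 groups alone (0.0566), and the overall call held without each library. MS.gene059943 (chromosome 8.1, 19801852 to 19803016) and MS.gene033300 (chromosome 8.2, 19906415 to 19907579) had values within 0.278 to 5.98% of each other in 11 libraries. In SM1, however, MS.gene059943 had 25.0 FPKM and MS.gene033300 was listed at 0, where the other SM libraries gave 12.6 and 11.3 FPKM for MS.gene059943 and 11.8 and 11.0 FPKM for MS.gene033300. The sum of the pair in SM1, 25.0 FPKM, was close to the 24.4 and 22.3 FPKM of SM2 and SM3, so the levels of the single models in SM1 are uncertain. Neither model was called alone (overall -0.86 ± 0.33, adjusted p = 0.164, and -1.40 ± 0.94, adjusted p = 0.451).

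The remaining NPF5 members gave no call. NPF5.2 (PTR3 in Arabidopsis) summed to 8.98, 8.17 and 21.1 FPKM in SM and 5.185, 5.111 and 3.43 FPKM in S, against 4.38, 16.6 and 8.12 FPKM in M and 12.9, 16.3 and 7.396 FPKM in CK. Each S library was below each CK and each SM library, while SM overlapped M, and the overall log2 fold change was -0.53 ± 0.38 (adjusted p = 0.346). NPF5.4, with 1 member on each copy of chromosome 8, overlapped in all 4 groups, at 21.8 ± 8.14 FPKM in SM and 19.3 ± 6.92 FPKM in S, against 20.03 ± 0.8 FPKM in M and 20.36 ± 7.23 FPKM in CK (SD, n = 3 each). NPF5.1 averaged 4.196 ± 1.51 FPKM in SM and 5.56 ± 1.84 FPKM in S, against 6.15 ± 7.08 FPKM in M and 3.73 ± 1.25 FPKM in CK, and M2 again held its highest value (14.3 FPKM).

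Of the 21 NPF and related description sums tested, 3 were higher (background 11.5% of all 14500 sums) and 4 were lower (background 12%) in the overall salt effect. For S vs. CK the sums called were NPF6.4 upward (background 6.96%) and NRT3.1, NPF1.1 and NPF8.1 downward (background 5.95%), and for SM vs. M NPF6.4 and NPF5.8 upward (background 3.14%) and NPF4.3 downward (background 3.86%). The sums with no call included the abundant NPF5.10, at 51.3 ± 8.64 FPKM in SM and 32.5 ± 6.19 FPKM in S, against 41.7 ± 8.95 FPKM in M and 36.3 ± 9.71 FPKM in CK (overall 0.07 ± 0.19). Its leading model MS.gene50863 (contig 21095) averaged 15.5 ± 5.45 FPKM in SM, 11.2 ± 2.95 FPKM in S, 14.7 ± 3.91 FPKM in M and 17.6 ± 1.9955 FPKM in CK. Members stood on all 4 copies in 9 pairs of description and chromosome, 48 members in total. In 3 of the 9 (NPF3.1, NPF4.6 and NPF6.4, each on chromosome 5) every member had a positive overall salt effect, in 2 (NPF1.1 on chromosome 4 and NPF8.1 on chromosome 3) every member had a negative one, and the other 4 held both signs. For MS.gene049107 and MS.gene015764 of NPF1.1 the sign follows in part from the limit on the mean level.

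Melatonin without salt (M vs. CK) and with salt (SM vs. S) gave few calls in these genes. No member passed an adjusted p of 0.05 in M vs. CK (edgeR's quasi-likelihood test, background 0.0118%), where 5 had an unadjusted p below 0.05 and DESeq2 called 1. With the fold and unadjusted p thresholds, 5 members changed in M vs. CK (background 4.82%), 2 upward and 3 downward, and 7 in SM vs. S (background 4.77%), 3 upward and 4 downward. No member passed them in both, and 207 of all 50931 tested models did. In SM vs. S the groups did not overlap in 15 members that were higher (background 6.65%) and 9 that were lower (background 5.54%). In M vs. CK this held for 6 higher (background 7.84%) and 7 lower (background 6.52%). These comparisons have no library in common, and 47 of the 98 members (48.0%) had the same sign in each, against 49.6% of all tested models. None of the 21 sums was called for the overall melatonin effect or the interaction in edgeR (background 0.0% each), where 5 sums in each had an unadjusted p below 0.05 and DESeq2 called 1 in each. The shares of all models or sums by unadjusted p alone or by DESeq2 are not given here. The counts by those rules, for members and for sums, are therefore not a result about these genes. In SM vs. CK, where both treatments act, MS.gene016759 was the 1 member called (background 0.218%), and NPF6.4 the 1 sum (2.08 ± 0.37, adjusted p = 0.0101, background 4.12%).

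Other genes of nitrate and peptide handling were counted from lists of descriptions. Of 76 nitrogen metabolism models, 5 were higher and 2 were lower in the overall salt effect (3.34% and 3.06% of all tested models), with a median log2 fold change of -0.21 against 0.03 over all tested models. The 5 were models of plastid glutamine synthetase and ferredoxin-dependent glutamate synthase, the enzymes that fix ammonium in the chloroplast, such as MS.gene00925 with a mean of 74.3 FPKM in the salt libraries against 16.3 FPKM without salt (adjusted p = 0.0108). None of 18 anion channel models (SLAC/SLAH and CLC) and none of 14 NIN-like regulators, the transcription factors of the nitrate response, was called in edgeR, with medians of -0.31 and -0.07. Among 23 other peptide carriers (OPT and YSL), 3 were lower (3.06% of all tested models) and 0 were higher, with a median of -0.59. The 3 were OPT models on copies of chromosome 2, such as MS.gene01236 (oligopeptide transporter 4) with a mean of 2.197 FPKM in the salt libraries against 12.7 FPKM without salt (log2 fold change -2.57, adjusted p = 0.0187).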

How the data were processed

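Leaf RNA from 12 libraries (4 groups of 3) was sequenced on an Illumina NovaSeq. The authors trimmed reads with Cutadapt, mapped them with HISAT2 2.0.4 and estimated expression with StringTie (tools from the submitters' processing notes and the methods); the genome build is not given in the sources used here. The deposited table holds, per gene model, an FPKM value and an estimated count, a whole number that was not normalized between libraries and that was used as deposited. The table's own fold changes and p-values were not used. Members were matched by description and a mean of at least 1 FPKM. They and the lists of related and marker genes were chosen with earlier results of these data known.

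Counts were normalized by TMM and tested with edgeR 4.0.16 (quasi-likelihood, R 4.3.3) in 1 fit over the 12 libraries, with Benjamini-Hochberg adjustment over all 50931 models, or over all 14500 sums of models that share a description. SEs are the absolute log2 fold change divided by the square root of F. The table's models with no reads carry a placeholder of 0.0001 FPKM and are given as 0. Bounds used 3 counts per library and cover counting error only. The fit was checked on simulated counts, where 83 of 200 changed models were recovered for the overall salt effect over 50931 models (72 with a log2 change of 4 and 11 with a change of 2). In S vs. CK of the same counts, 24 of the 200 were recovered (23 and 1). Genes named in the text are, for each of 8 comparisons, up to 8 called members per direction by mean FPKM, or the 3 with the lowest p where none was called, the 10 most abundant members, the called sums and the 6 most abundant sums, other models of the same descriptions, and the members nearest the limit. The other descriptions and their models (NPF2.9, NPF2.13, NPF5.1, NPF5.2, NPF5.4, NPF6.2 and NPF6.3, and MS.gene89908) were added after their values were seen, to cover the family. Alternatives were DESeq2 1.42.0 (size factors and Wald test), other filters, limma 3.58.1 on log2(FPKM + 1), the 2 groups alone, a replicate block, the fold and unadjusted p thresholds, leaving out each library, and sums by description and chromosome, which were added after seeing the data.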

Additional observations from a re-analysis of the deposited data

Results flagged for a closer look

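MS.gene023241, a proton-dependent oligopeptide transporter model on chromosome 4.3, was picked out because its salt effect differed between plants with and without melatonin by a test of the difference itself. The fitted interaction was 12.82 ± 0.77 on the log2 scale (edgeR's quasi-likelihood test, adjusted p = 0.00302). This value depends on the prior count, since the model was listed at 0 in the 3 S libraries. Summed with the other models of its description on chromosome 4, the interaction was -0.46 ± 0.49.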

How the results depend on the processing

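In the overall salt effect 9 members were called, against 5 with no filter on low values, 23 by DESeq2's Wald test and 31 by the fold and unadjusted p thresholds. In S vs. CK (3 called) these settings gave 1, 16 and 20, limma gave 9 and a fit of the 2 groups alone 0. In SM vs. M (1 called) they gave 0, 13 and 20, filterByExpr gave 0, limma 3 and the 2 groups alone 0. In SM vs. CK (1 called) they gave 0, 8 and 11, filterByExpr gave 0, limma 2 and the 2 groups alone 0. DESeq2 and the thresholds gave 1 and 5 in M vs. CK (0 called), 3 and 7 in SM vs. S (1 called, 0 with the 2 groups alone), and, with limma at 0 in both, 2 and 5 for the overall melatonin effect (1 called) and 2 and 7 for the interaction (1 called). Of the 21 description sums, 7 were called for salt (background 23.5%), against 3 by the thresholds. Summed by description and chromosome, a choice made after seeing the data, 14 of 36 sums were called (background 20.2%). For the description sums, DESeq2 and the thresholds gave 1 and 3 for melatonin (0 called) and 1 and 5 for the interaction (0 called). The share of all tested models called changes with the setting too. For salt over both melatonin states it was 6.4%, and 16.0% by the thresholds. Shares for DESeq2, limma and the other fits are not given here. The counts here and below therefore describe the settings and are not a result about these genes.

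Leaving out each library gave 5 to 10 members for the overall salt effect, 1 to 5 in S vs. CK, 0 to 1 in SM vs. M, 0 to 1 in M vs. CK, 1 to 2 in SM vs. S, 0 to 1 in SM vs. CK, 1 to 2 for melatonin and 1 to 2 for the interaction, and 5 to 8 sums for salt. The salt effect of MS.gene037904 ran from -1.19 to 0.36 and that of the NPF5.10 sum from -0.027 to 0.19. Summed by description and chromosome, MS.gene023241 turned to 0.53 in S vs. CK, -0.52 in SM vs. S, -0.46 in the interaction, -0.29 for melatonin and 0.29 for salt, and MS.gene34993 to 0.29 for salt, since that sum holds its neighbours too.

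Library numbers do not pair the samples: same-numbered libraries correlated at -0.065 to 0.027 over 18 pairs of libraries, and 2 of 12 correlated best with their own number. With a replicate block 5 members were called for salt, 1 in S vs. CK, 0 in SM vs. M, 0 each in SM vs. S and SM vs. CK, 0 for melatonin and 0 for the interaction, with 8 sums for salt, and the NPF4.3 sum was not called in SM vs. M (adjusted p = 0.0504). In simulated counts with 3 libraries a group, changes of 2 on the log2 scale were mostly missed. For salt over both melatonin states 11 were recovered, and in S vs. CK 1 was. No melatonin or interaction effect was simulated. A missing call therefore does not show an unchanged level.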
